A study of Mus musculus with 6 samples.

Results

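The T cell receptor is a pair of chains, and each chain is built by joining 1 of many variable (V) gene segments to joining and constant segments, so the V gene that a T cell transcribes is part of its clonal identity. The alpha and beta chains (V genes Trav and Trbv) pair in most T cells, including CD8+ T cells that see peptides on MHC class I. The delta and gamma chains (Trdv, and Trgv2 with the Tcrg-V genes) pair in the smaller gamma delta lineage. Trav genes with dv in their symbol can also serve delta chains and are counted under Trav here. In bulk RNA a V gene's level is a sum over all clones that use it, whether or not the rearrangement is productive, and it says nothing about which alpha chain was paired with which beta chain.

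All genes with a symbol starting Trav, Trbv, Trdv, Trgv or Tcrg-V and a value above 0 in at least 1 sample were taken, which gave 154 of the 28773 genes in the files. They were 112 Trav, 29 Trbv, 6 Trdv and 7 Trgv genes (Trgv2 and Tcrg-V1, Tcrg-V3, Tcrg-V4, Tcrg-V5, Tcrg-V6 and Tcrg-V7), and 17 of them are annotated as pseudogenes. The reference annotation has 22 further V genes, which were not analysed here. The RNA came from mouse splenic CD8+ T cells collected on day 35, prepared with a magnetic isolation kit after the spleens were crushed and red cells lysed. Both groups had their mammary tumor treated with microwave ablation (MWA), and 3 samples also had the PBS vehicle (MWA+PBS, replicates 1 to 3) and 3 had the glycolysis inhibitor 2-deoxy-D-glucose (MWA+2DG, replicates 4 to 6). The labels give no strain, tumor line, sex or age for these samples and do not say whether each came from 1 animal, so the p-values measure only the spread between these samples. The paper states that its mice were all female and that its wild-type mice were 6 weeks old, apart from an older control group. There was no group without ablation and no day before treatment.

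Values are FPKM, fragments scaled by transcript length and library size, and read depth is unknown. FPKM totals lay between 291803 and 313257, and the labels name no batch, so treatment and any batch aligned with it cannot be told apart. The isolates matched their label in part. All 10 CD8 T cell markers of a fixed list were present, and their sum ranged from 1224 to 1275 FPKM in the MWA+PBS samples and from 1736 to 1842 in those of MWA+2DG. Cd4 was at or under 2.91 FPKM in each sample. Genes of other cells moved with the groups too. The sum of 8 macrophage markers was 550.4 to 605.5 FPKM in the MWA+PBS samples and 84.3 to 90.9 in those of MWA+2DG, that of 8 neutrophil markers 62.9 to 86.1 and 1498 to 1663, and that of 8 B cell markers 10.3 to 11.4 and 49.5 to 54.6. The sum of 6 natural killer T cell markers was 75.3 to 87.3 and 51.6 to 56.5 FPKM (2 of 3 tested fell). Most of it was Plac8, at 69.9 ± 4.70 and 42.8 ± 2.63 FPKM, and Cd1d1 was 8.98 ± 1.25 and 8.74 ± 0.22 FPKM. The sum of 7 CD4 T cell markers was 17.9 to 19.9 and 18.03 to 18.28 (2 of 6 fell). That of 4 thymocyte markers, Dntt among them, was 12.2 to 14.4 and 9.24 to 9.69 (1 of 2 fell). Calls are at a limma adjusted p under 0.05, by which 22.3% of all tested genes rose and 17.1% fell. All 10 CD8 T cell, 7 of 8 neutrophil and 7 of 8 B cell markers rose, and all 8 macrophage markers fell. The part of these cells in the results below was not tested, and in bulk RNA fewer cells of a type and less RNA per cell cannot be told apart.

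The summed V gene signal of the alpha, beta and gamma loci was higher in each MWA+2DG sample than in any MWA+PBS sample. The summed Trav FPKM was 418.4, 438.3 and 406.4 in the MWA+PBS samples and 694.8, 608.1 and 726.5 in those of MWA+2DG. The summed Trbv FPKM was 496.8, 513.1 and 469.7 in the MWA+PBS samples and 825.2, 730.7 and 729.6 in those of MWA+2DG. At both loci the lowest MWA+2DG sample lay above the highest MWA+PBS sample, and the mean log2 sums differed by 0.68 (1.60-fold) for Trav and 0.63 (1.54-fold) for Trbv. Each had p = 0.1 in a two-sided exact permutation test, the smallest value that 3 samples against 3 can give.

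The Trgv and Trdv genes were a small part of the V gene signal and did not move alike. The Trgv sum was 9.72, 13.0 and 12.3 FPKM in the MWA+PBS samples and 23.8, 23.2 and 26.1 in those of MWA+2DG, again without overlap, a difference of 1.07 in mean log2 sums (2.10-fold, exact permutation p = 0.1). The Trdv sum was 8.89, 10.1 and 10.3 FPKM in the MWA+PBS samples and 13.0, 10.3 and 14.9 in those of MWA+2DG, where replicate 5 of MWA+2DG reached no higher than the highest MWA+PBS sample (difference 0.37, exact permutation p = 0.2, and -0.05 when each sample was scaled to its CD3 complex sum). Trdv and Trgv genes together held 2.29% ± 0.27 (SD, n = 3) of the V gene FPKM in MWA+PBS samples and 2.51% ± 0.20 in MWA+2DG (exact permutation p = 0.5). Because Trav genes with dv in their symbol were counted as Trav, neither this share nor the Trdv sum measures all delta chain use.

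**Figure D1:**
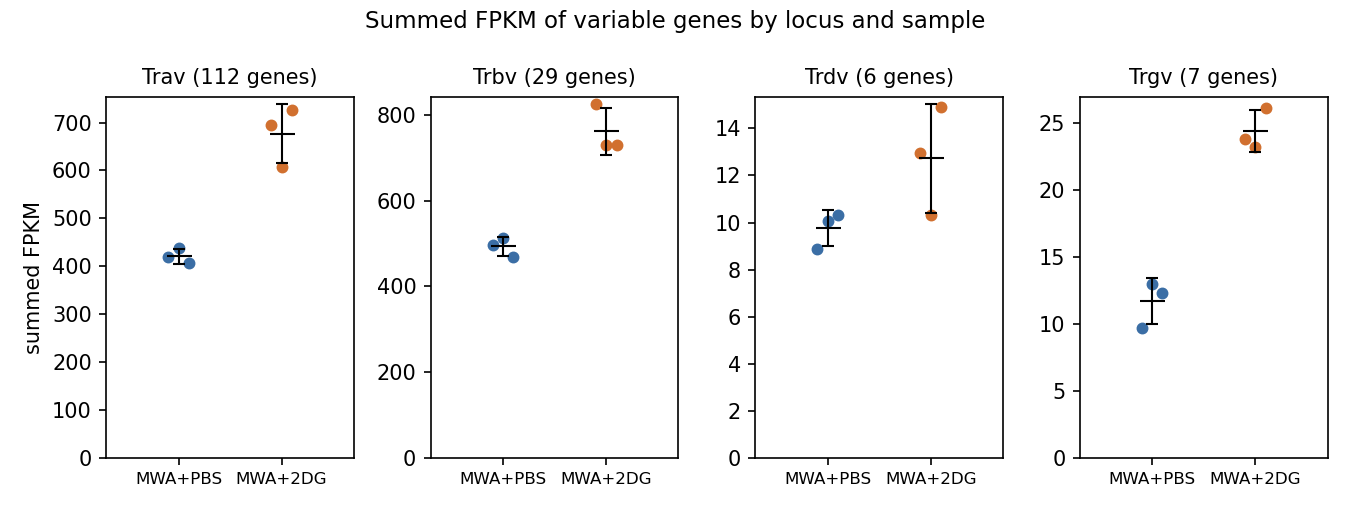
Summed FPKM of the V genes of each locus (y axis, FPKM, a separate scale from 0 for each locus) by group (x axis). Points are the 3 samples of a group, and black bars give the mean ± SD. The MWA+2DG samples of Trav, Trbv and Trgv all sit above the MWA+PBS samples, while those of Trdv touch them.

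Of 7 receptor constant genes 5 rose as well, while Trdc and Tcrg-C4 did not pass. Trac, the alpha constant gene that every alpha chain carries, was 266.7, 273.9 and 249.8 FPKM in the MWA+PBS samples and 389.2, 365.2 and 412.9 in those of MWA+2DG, and its log2 fold change was 0.56 with a standard error of 0.07 (limma adjusted p = 0.000594). Fold changes of single genes are differences of log2(FPKM + 1), MWA+2DG minus MWA+PBS, which understates low genes. The beta constant genes Trbc1 and Trbc2 rose by 0.51 and 0.57 (limma adjusted p = 0.00137 and 0.00167). The 4 genes of the CD3 complex, which carries the receptor's signal into the cell, rose by between 0.29 (Cd247) and 0.58 (Cd3g). The sum of Trav over Trac was 1.60 ± 0.03 in MWA+PBS samples and 1.74 ± 0.06 in MWA+2DG (n = 3 each, exact permutation p = 0.1). The sum of Trbv over both beta constant genes was 0.97 ± 0.04 and 1.03 ± 0.05 (exact permutation p = 0.3). Scaled to the CD3 complex sum, the differences in mean log2 sums were 0.26 for Trav, 0.21 for Trbv and 0.65 for Trgv (exact permutation p = 0.1 for each). Of the 14 Trbj joining genes tested, all 14 rose, with a median log2 fold change of 0.64. Of the 60 Traj genes 50 were tested and 8 rose, beside the 22.3% of all tested genes, with a median of 0.40 and a median within-group SD of 0.52 on the log2 scale.

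Of the 154 V genes, 115 had a mean FPKM of at least 1 and entered the test, which was run with limma over all 12444 genes above that level. At the threshold of 0.05 on the adjusted p, 74 rose and 1 fell. Over all genes tested, 22.3% rose and 17.1% fell by the same rule (39.4% either way). By the study's thresholds, a p under 0.05 and a log2 fold change beyond 0.25, 83 V genes and 38.2% of all genes passed. The median log2 fold change of the tested V genes was 0.55, against 0.05 over all genes. Among the Trav genes 53 of 87 rose and 1 fell, among the Trbv genes 18 of 21 rose, among the Trdv genes 1 of 4 and among the Trgv genes 2 of 3. The groups did not overlap and MWA+2DG was higher for 55 Trav, 19 Trbv, 1 Trdv and 2 Trgv genes, where 30.2% of all tested genes met that rule. These counts depend on the reference. With each sample scaled to its CD3 complex sum, 32 V genes rose and 3 fell, beside 5.09% and 58.5% of all genes, and the V genes had a median of 0.21, all genes -0.31. The 32 were 18 Trav, 11 Trbv, 1 Trdv and 2 Trgv genes. With each sample scaled to Trac, Trbc1 and Trbc2, a scaling chosen after seeing the data, 21 rose and 5 fell, beside 3.23% and 69.4% of all genes, with medians of 0.09 and -0.42.

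**Figure D2:**
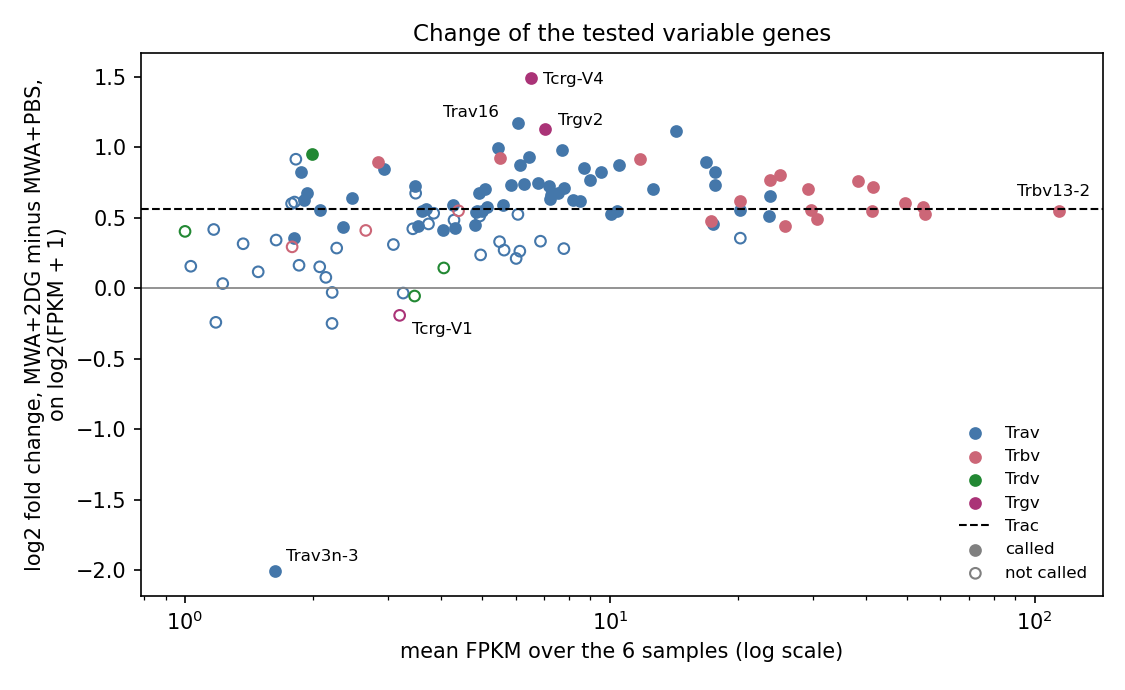
Log2 fold change (y axis, MWA+2DG minus MWA+PBS on log2(FPKM + 1)) against mean FPKM over the 6 samples (x axis, log scale) for the 115 tested V genes, coloured by locus. Filled points passed a limma adjusted p under 0.05, open points did not, and the dashed line is the 0.56 of Trac. Most points lie near that line, Tcrg-V4 stands highest and Trav3n-3 lies alone at -2.01.

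Trbv13-2 led the beta chain repertoire in each sample and was the highest of all V genes. It was 92.0, 94.0 and 90.4 FPKM in the MWA+PBS samples and 152.1, 126.3 and 128.9 in those of MWA+2DG, and its log2 fold change was 0.55 with a standard error of 0.08 (limma adjusted p = 0.00125). The fold change was 0.13 and did not pass with CD3 complex scaling (limma adjusted p = 0.193). As a share of the Trbv sum it was 18.7% ± 0.49 and 17.8% ± 0.59 (n = 3 each). Its relatives Trbv13-3 and Trbv13-1, of the same subgroup, held 8.86% and 7.95% in MWA+PBS samples and 8.60% and 7.89% in MWA+2DG. The 3 genes together held 35.5% ± 1.20 and 34.3% ± 0.23 (exact permutation p = 0.2). Trbv29 held 9.13% ± 0.46 and 8.55% ± 0.16 and did not differ from Trbv13-3 beyond their spread in either group. Trbv12-2 held 6.34% and 6.84%, and Trbv17 6.78% ± 0.06 and 6.50% ± 0.56, and these neighbours did not differ beyond their spread in MWA+2DG. Trbv5, Trbv14, Trbv19, Trbv2, Trbv1, Trbv3, Trbv4 and Trbv20 each held between 3.20% and 6.37% in both groups, and Trbv31 held 2.91% and 2.68%.

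The 5 largest beta chain rises were those of Trbv15, Trbv16, Trbv24, Trbv3 and Trbv4. Trbv15 was 3.33, 4.43 and 2.73 FPKM in the MWA+PBS samples and 9.70, 6.39 and 6.55 in those of MWA+2DG, and its log2 fold change was 0.92 with a standard error of 0.18 (limma adjusted p = 0.00586). Trbv16 was 7.38, 9.20 and 7.10 FPKM and 16.6, 14.7 and 15.8 FPKM, 0.91 ± 0.10 (limma adjusted p = 0.000318). Trbv24, annotated as a pseudogene, rose by 0.89, Trbv3 by 0.80 and Trbv4 by 0.77. With each sample scaled to its own Trbv sum, which asks whether a gene's share changed, 77% of all genes passed and the median of all genes was -0.48. Of the Trbv genes 3 still passed: Trbv15 (0.41), Trbv16 (0.34) and Trbv24 (0.45), with limma adjusted p = 0.0211, 0.00686 and 0.0204. The other 18 did not pass, which does not show that their shares were the same.

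Some beta chain families are known to be thinned in mouse strains that carry certain endogenous retroviral superantigens, and their V genes were read separately. Trbv12-1, Trbv12-2, Trbv15, Trbv16 and Trbv26 together held 9.12, 9.76 and 9.27% of the Trbv sum in MWA+PBS samples and 10.7, 10.3 and 10.7% in MWA+2DG (exact permutation p = 0.1). Most of this was Trbv12-2, at 31.3 ± 0.90 FPKM and 52.1 ± 3.69 FPKM. Trbv26 was among the lowest genes tested, at 1.54 ± 0.76 FPKM and 2.04 ± 0.36 FPKM (log2 fold change 0.29, limma adjusted p = 0.29), and Trbv12-1 was 2.13 ± 0.25 FPKM and 3.20 ± 0.77 FPKM (0.41, limma adjusted p = 0.0533). Trbv30 was the third Trbv gene that did not pass, at 3.43 ± 1.66 FPKM and 5.38 ± 2.39 FPKM. Trbv23 stayed under the level for the test, at 0.00, 0.63 and 0.00 FPKM in the MWA+PBS samples and 0.00, 1.0 and 0.33 in those of MWA+2DG.

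Single libraries and the scaling decided several beta chain calls. The call of Trbv1 (log2 fold change 0.44, limma adjusted p = 0.0191) was lost without MWA+2DG replicate 4 (0.0651) or 5 (0.0581), and that of Trbv14 (0.49, limma adjusted p = 0.0152) without MWA+PBS replicate 1 (0.0527). With CD3 complex scaling the calls of Trbv1, Trbv14, Trbv17, Trbv19, Trbv29 and Trbv31 were lost as well, at log2 fold changes between 0.039 and 0.15 (limma adjusted p between 0.0576 and 0.764). Trbv12-1 passed without MWA+2DG replicate 6 (limma adjusted p = 0.0139) and Trbv26 without MWA+PBS replicate 2 (0.022).

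**Figure D3:**
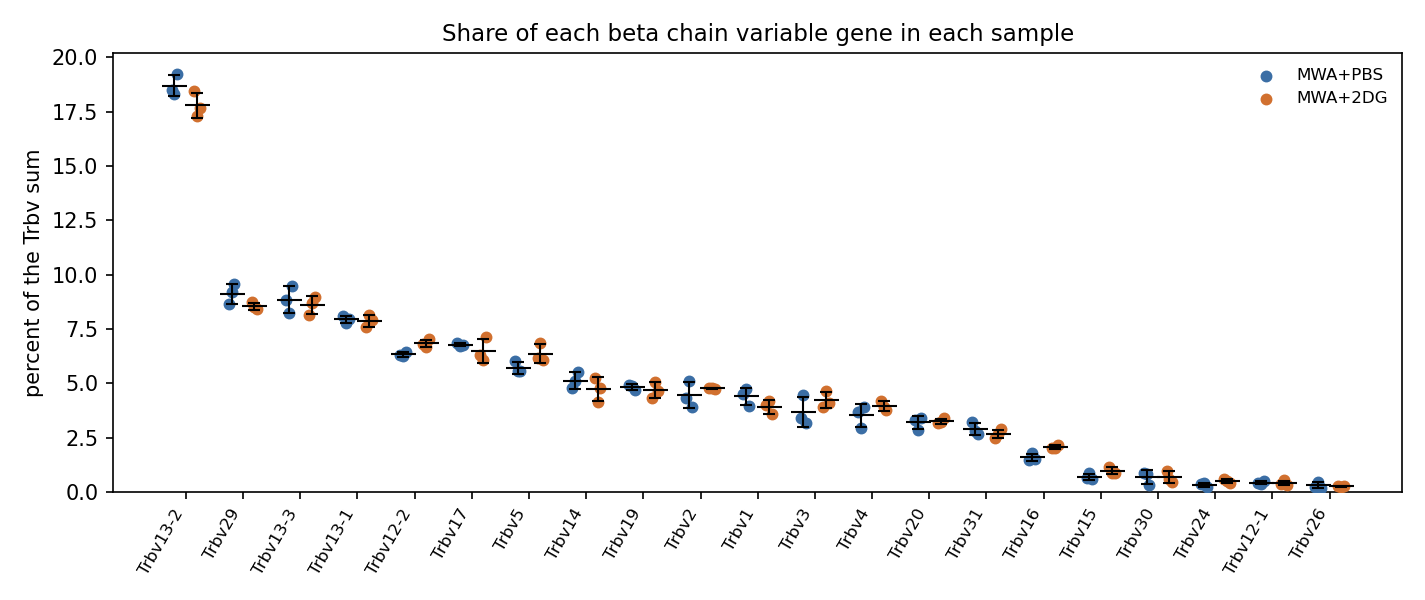
Share of each of the 21 tested Trbv genes (x axis, ordered by mean FPKM) in the Trbv sum of its sample (y axis, percent, from 0). Points are samples and black bars the mean ± SD of a group. Trbv13-2 stands alone near 18%, and the group means lie within a percentage point of each other at each gene.

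The alpha chain signal was spread over far more genes. No Trav gene exceeded a mean of 23.8 FPKM, and the 5 highest held 20.1% ± 2.69 of the Trav sum in MWA+PBS samples and 18.8% ± 0.87 in MWA+2DG, against 51.0% ± 1.56 and 49.7% ± 0.33 for the 5 highest Trbv genes. The effective number of genes, the exponential of the Shannon entropy of the shares, says how many equally used genes would give the same evenness. For Trav it was 71.1, 66.6 and 66.2 in the MWA+PBS samples and 68.2, 65.0 and 69.6 in those of MWA+2DG, and the groups overlapped (exact permutation p = 1.0). For Trbv it was 15.2, 15.4 and 14.5 and then 15.5, 15.6 and 15.4, a difference of 0.47 (exact permutation p = 0.1), which was 0.21 without MWA+PBS replicate 3. With only genes of a mean FPKM of at least 1, or with subgroup sums, the Trbv groups overlapped (exact permutation p = 0.2 for each).

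The 6 highest Trav genes rose in all but 1 case. Trav3-3 was 15.4, 19.5 and 19.8 FPKM in the MWA+PBS samples and 32.8, 23.8 and 31.6 in those of MWA+2DG, and its log2 fold change was 0.66 with a standard error of 0.14 (limma adjusted p = 0.0083). Trav16n, Trav7-4, Trav6-6 and Trav8d-1 rose by 0.51, 0.55, 0.73 and 0.82, and Trav16d-dv11, at 17.8 ± 3.78 FPKM and 22.8 ± 3.14 FPKM, did not pass (0.35, limma adjusted p = 0.108). With CD3 complex scaling the calls of Trav3-3 (0.25), Trav16n (0.11) and Trav7-4 (0.16) were lost, at limma adjusted p = 0.172, 0.551 and 0.285. The call of Trav16n (limma adjusted p = 0.0359) was lost without MWA+PBS replicate 1 or 3 or without MWA+2DG replicate 4 or 5, at limma adjusted p between 0.0896 and 0.106, and Trav16d-dv11 passed without MWA+PBS replicate 2 (0.031).

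Among the called Trav genes the rises ranged from 0.36 (Trav13d-1) to 1.17. The largest was Trav16, at 4.08, 3.06 and 2.67 FPKM in the MWA+PBS samples and 9.73, 5.48 and 11.4 in those of MWA+2DG (1.17 ± 0.24, limma adjusted p = 0.00697). Trav14-1 was 8.05, 10.3 and 7.76 FPKM and 21.4, 19.1 and 19.3 FPKM, with no overlap and little spread (1.12 ± 0.10, limma adjusted p = 0.000164). Trav7-2, Trav14n-1 and Trav12d-2 followed with 1.0, 0.98 and 0.93. The call of Trav7-2 (limma adjusted p = 0.0488) was lost with CD3 complex scaling (0.116), without a filter on low values (0.126) and without any 1 of the 3 MWA+2DG replicates, at limma adjusted p between 0.0592 and 0.125. The summed FPKM of the Trav14 subgroup was 29.2, 30.6 and 31.2 in the MWA+PBS samples and 65.2, 55.3 and 67.7 in those of MWA+2DG, 1.02 ± 0.08 on the log2 scale (limma adjusted p = 7.48e-05 in a fit on subgroup sums). The largest subgroups, Trav6 and Trav7, together held 35.3% ± 0.87 of the Trav sum in MWA+PBS samples and 35.6% ± 0.70 in MWA+2DG (exact permutation p = 0.5).

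Scaled to each sample's Trav sum, which made 79.3% of all genes pass with a median of -0.53, 15 Trav genes passed, 7 higher and 8 lower. Those higher included Trav14-1 (0.49, limma adjusted p = 0.002), Trav16 (0.60, 0.0128), Trav12d-2 (0.35, 0.00797) and Trav14n-1 (0.39, 0.0355), while Trav7-2 did not pass (0.45, limma adjusted p = 0.192). Those lower were Trav3n-3 (-2.32), Trav13n-2 (-0.72, limma adjusted p = 0.00119), Trav13d-2 (-0.55, 0.0193), Trav7-5 (-0.50, 0.00465), Trav12n-1 (-0.39), Trav9d-1 (-0.37), Trav5d-4 (-0.33) and Trav9-4 (-0.31). The Trav locus of the reference mouse holds duplicated blocks whose genes carry a d or n in their symbol. The unlettered genes held 47.0% of the Trav sum in MWA+PBS samples and 48.0% in MWA+2DG, the d genes 32.2% and 31.7%, and the n genes 20.9% and 20.3%. Across the 87 tested Trav genes, which are not independent, Spearman's rho between position along the locus and log2 fold change was -0.05, and between mean level and log2 fold change 0.47. Because log2(FPKM + 1) shrinks the fold changes of low genes, a positive value with level is partly built in. It does not show that higher genes rose more.

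Trav3n-3 was the only V gene of the 115 tested that fell. It was 3.67, 3.60 and 2.39 FPKM in the MWA+PBS samples and 0.09, 0.00 and 0.03 in those of MWA+2DG, so that all 3 samples of MWA+2DG were near 0 (log2 fold change -2.01 ± 0.14, limma adjusted p = 4.85e-05). Trav3n-3 passed the filter on mean FPKM only through the MWA+PBS samples (means of 3.22 and 0.04 FPKM), so its p-value is no further support for the fall. As a share of the Trav3 subgroup it went from 11.1% ± 3.25 to 0.09% ± 0.10. Its value is uncertain because its annotated transcript is shared. Trav3d-3 has the same coding sequence over all 343 bases and was listed at 0.13 FPKM or less in each sample, and Trav3-3 differs from it at 4 of 343 bases. The coding parts of both transcripts are shown because reads of one can be assigned to the other. Bases 44 to 343, read from GENCODE M21 (GRCm38, a C57BL/6J reference), are given 5′ to 3′ with the 4 differing bases in capitals.
Trav3-3: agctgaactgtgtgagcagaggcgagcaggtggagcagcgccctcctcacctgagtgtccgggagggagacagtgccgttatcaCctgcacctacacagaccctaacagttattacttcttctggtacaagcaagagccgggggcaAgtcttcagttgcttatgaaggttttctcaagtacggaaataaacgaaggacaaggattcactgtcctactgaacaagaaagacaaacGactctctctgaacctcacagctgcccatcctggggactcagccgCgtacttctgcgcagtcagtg
Trav3n-3: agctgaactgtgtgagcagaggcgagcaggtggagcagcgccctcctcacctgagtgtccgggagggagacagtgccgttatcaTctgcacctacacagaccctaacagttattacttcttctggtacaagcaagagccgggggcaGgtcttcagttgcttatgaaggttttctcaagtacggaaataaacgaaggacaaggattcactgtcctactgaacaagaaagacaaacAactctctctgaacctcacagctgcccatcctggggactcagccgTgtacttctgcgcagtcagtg

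A read that covers none of the 4 capitals fits each of the 3 copies. The sum of Trav3-3, Trav3d-3 and Trav3n-3 was 19.1, 23.1 and 22.3 FPKM in the MWA+PBS samples and 32.9, 23.9 and 31.7 in those of MWA+2DG (exact permutation p = 0.1), and the whole Trav3 subgroup rose by 0.52 ± 0.14 (limma adjusted p = 0.0222 in the fit on subgroup sums). When all V genes were summed by subgroup, 35 of 45 subgroups rose and 0 fell by limma, with 2 subgroups below 0. Of the 112 Trav genes, 49 shared at least 50% of their 100-base stretches with another V gene and 25 shared none, so single Trav values rest on how reads were divided. The 29 Trbv genes shared none. Among tested Trav genes the share that rose was 11 of 18 without such sharing and 20 of 37 with at least 50% shared, with median log2 fold changes of 0.54 in both classes.

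Chains of invariant T cells were low. Trav11 and Trav11d, which encode the alpha chain of invariant natural killer T cells and share nearly all their sequence, were 0.31 ± 0.30 and 1.27 ± 0.78 FPKM in MWA+PBS samples and 0.69 ± 0.79 and 2.35 ± 0.29 FPKM in MWA+2DG. Trav11d alone did not pass (log2 fold change 0.61, limma adjusted p = 0.0602), though it did without MWA+PBS replicate 3 (0.00274). The Trav11 subgroup sum was 1.03, 1.57 and 2.15 FPKM and then 2.56, 3.02 and 3.75 FPKM, which passed (0.68 ± 0.18, limma adjusted p = 0.018). Traj18, the joining gene of the same invariant chain, was 8.10 ± 5.22 and 6.03 ± 3.16 FPKM and did not pass (limma adjusted p = 0.617), and Zbtb16, a transcription factor of natural killer T cells, fell from 1.56 ± 0.21 to 0.95 ± 0.22 FPKM (limma adjusted p = 0.0358). Trav1, the variable gene of mucosal-associated invariant T cells, was 1.32 ± 0.39 and 1.96 ± 0.68 FPKM (limma adjusted p = 0.193).

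The gamma chain genes lie in clusters, each with its own V, joining and constant genes, and the clusters differed. In the cluster of Tcrg-C1 the V gene Tcrg-V4, which is common in gamma delta cells of lymphoid organs, was 2.21, 3.35 and 3.32 FPKM in the MWA+PBS samples and 10.5, 9.10 and 10.6 in those of MWA+2DG. All MWA+2DG samples were far above the others, and its log2 fold change, 1.49 (standard error 0.13, limma adjusted p = 0.000117), was the largest rise of any V gene tested. In the cluster of Tcrg-C2 the V gene Trgv2 was 3.64, 4.54 and 3.93 FPKM and then 8.44, 9.68 and 12.1 FPKM (1.13 ± 0.13, limma adjusted p = 0.000425). In the cluster of Tcrg-C4 the V gene Tcrg-V1 was 3.01, 3.38 and 3.97 FPKM and then 3.67, 3.17 and 2.00 FPKM, with overlap (-0.19 ± 0.17, limma adjusted p = 0.396).

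The joining and constant genes of the 3 clusters were read beside their V genes. Trgj2 and Tcrg-C2 rose by 1.19 and 0.89 (limma adjusted p = 0.0101 and 0.000467). Tcrg-C1 rose by 0.40 (limma adjusted p = 0.0195), a call lost when no filter on low values was used (0.0513) and with CD3 complex scaling (log2 fold change 0.028, limma adjusted p = 0.831), and Trgj1 did not pass (0.72, limma adjusted p = 0.0756). Trgj4 and Tcrg-C4, beside Tcrg-V1, had -0.21 and 0.06 (limma adjusted p = 0.285 and 0.609). As shares of the Trgv sum, Tcrg-V4 went from 25.1% ± 2.16 to 41.3% ± 2.51 and Tcrg-V1 from 29.7% ± 3.28 to 12.3% ± 4.08 (n = 3 each, exact permutation p = 0.1 for each), while Trgv2 held 34.7% ± 2.79 and 41.2% ± 5.43 (exact permutation p = 0.2). With each sample scaled to its CD3 complex sum, Tcrg-V4 and Trgv2 still rose (1.15 and 0.77, limma adjusted p = 0.000305 and 0.00126) and Tcrg-V1 fell (-0.51, limma adjusted p = 0.028). Cd163l1 and Blk, genes known from gamma delta T cells, of which Blk is also a B cell kinase, rose by 0.45 and 1.45 (limma adjusted p = 0.00893 and 8.86e-06), and their part in these values was not tested.

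Trgv2 and Tcrg-V1 are near copies, so their values are set beside their sequences. The coding parts are 94.9% identical, at 332 of 350 aligned positions, and share no 100-base stretch with each other, so 18 positions carry the distinction, 3 of them in a gap of the shorter Tcrg-V1. Tcrg-V4 is 55.6% identical to Trgv2. The last 300 bases of Trgv2, the part of Tcrg-V1 aligned with them and the last 300 bases of Tcrg-V4, from the same GENCODE M21 reference, are given 5′ to 3′. Capitals mark positions that differ between Trgv2 and Tcrg-V1.
Trgv2: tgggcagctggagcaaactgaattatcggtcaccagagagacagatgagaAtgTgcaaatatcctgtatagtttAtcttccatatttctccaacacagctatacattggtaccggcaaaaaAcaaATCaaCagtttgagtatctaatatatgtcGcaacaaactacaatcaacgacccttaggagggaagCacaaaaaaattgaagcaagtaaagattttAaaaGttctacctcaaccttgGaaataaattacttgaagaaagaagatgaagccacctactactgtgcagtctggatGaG
Tcrg-V1: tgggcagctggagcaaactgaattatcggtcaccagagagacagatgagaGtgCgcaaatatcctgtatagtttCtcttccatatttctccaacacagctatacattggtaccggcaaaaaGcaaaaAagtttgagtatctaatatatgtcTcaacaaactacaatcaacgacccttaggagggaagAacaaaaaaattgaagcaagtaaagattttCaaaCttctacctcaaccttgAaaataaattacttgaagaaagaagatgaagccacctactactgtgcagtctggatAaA
Tcrg-V4: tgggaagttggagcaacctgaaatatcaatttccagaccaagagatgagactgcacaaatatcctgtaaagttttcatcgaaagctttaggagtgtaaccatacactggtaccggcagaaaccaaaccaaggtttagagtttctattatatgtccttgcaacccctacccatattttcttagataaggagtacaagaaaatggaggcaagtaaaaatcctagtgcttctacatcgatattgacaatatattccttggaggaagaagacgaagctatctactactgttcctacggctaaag

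The other 4 gamma V genes stayed below the level for the test. Tcrg-V5, used by gamma delta cells of the epidermis, was at or under 0.34 FPKM in each sample. Tcrg-V7, used in the gut epithelium, was at or under 0.74 FPKM, and Tcrg-V6 was 0.84 ± 0.50 and 0.49 ± 0.10 FPKM. Tcrg-V3 was listed at 0.20 FPKM in MWA+PBS replicate 1 and at 0 in the other 5 samples.

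Of the 4 Trdv genes tested, Trdv5 rose and the other 3 did not pass. Trdv5 was 0.67, 1.48 and 1.01 FPKM in the MWA+PBS samples and 2.73, 3.09 and 2.96 in those of MWA+2DG (0.95 ± 0.15, limma adjusted p = 0.00187). Trdv1 was 2.44, 4.02 and 4.12 FPKM and then 3.62, 2.07 and 4.55 FPKM, with full overlap (-0.06 ± 0.24, limma adjusted p = 0.874). Trdv2-2 was 3.86 ± 1.14 and 4.27 ± 0.46 FPKM (0.14, limma adjusted p = 0.537), and Trdv4 was 0.72 ± 0.55 and 1.28 ± 0.66 FPKM (0.40, limma adjusted p = 0.3). Trdv2-1 and Trdv3 stayed below the level for the test, at or under 1.33 and 0.36 FPKM in each sample. The delta constant gene Trdc was 4.61 ± 0.50 and 5.47 ± 0.70 FPKM (0.20, limma adjusted p = 0.159).

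**Figure D4:**
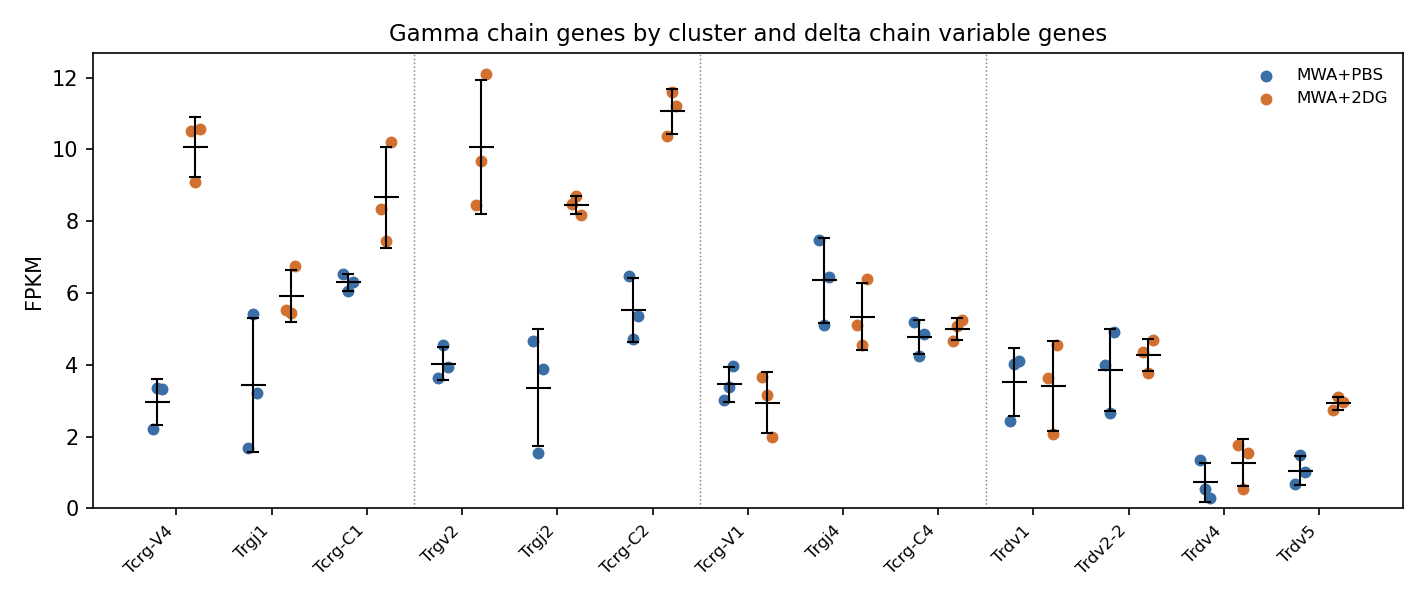
FPKM (y axis, from 0) of gamma chain genes in 3 clusters, separated by dotted lines and ordered V, joining and constant gene, and of 4 Trdv genes at the right. Points are samples and black bars the mean ± SD of a group. The groups separate at Tcrg-V4, Trgv2 and Trdv5 and overlap at Tcrg-V1, Trdv1 and Trdv2-2.

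The spread between replicates of single genes had a higher median for Trav than for Trbv, and this difference was not seen when genes were summed by subgroup (0.15 for both). The within-group SD of log2(FPKM + 1), pooled over both groups, had a median of 0.24 over the 87 Trav genes, 0.14 over the 21 Trbv genes, 0.33 over the 4 Trdv genes and 0.19 over the 3 Trgv genes. Over all 12444 genes tested it was 0.10. Trbv genes were also higher in level. Among genes with a mean of 1 to 5 FPKM the Trbv median was the higher, at 0.27 (46 Trav genes), 0.30 (4 Trbv genes) and 0.13 (5131 genes). At 5 to 20 FPKM the medians were 0.21 (37 Trav genes), 0.14 (3 Trbv genes) and 0.09 (5091 genes), and at 20 FPKM and above 0.23 (4 Trav genes), 0.10 (14 Trbv genes) and 0.08 (2222 genes). Each group taken alone gave Trav medians of 0.21 in both and Trbv medians of 0.11 in MWA+PBS samples and 0.13 in MWA+2DG. The coefficient of variation of FPKM had a median of 19.0% and 17.3% for Trav genes and 11.2% and 9.09% for Trbv genes. Trbv13-3 was the steadiest Trbv gene, with an SD of 0.04, and Trav17 the steadiest Trav gene, with 0.06.

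By a distance between whole usage profiles, the groups lay apart beyond the spread within them only for Trgv. The share of the Trav sum that would have to pass between genes to turn one sample into another was 11.7 to 12.7% within MWA+PBS, 8.90 to 10.2% within MWA+2DG and 10.8 to 13.3% between the groups. For Trbv it was 3.81 to 5.28%, 3.46 to 4.11% and 3.61 to 6.30%. These ranges overlap at both loci, which does not show that usage was the same. When scaled to the sum of their own locus, 15 Trav and 3 Trbv genes passed. For Trgv it was 9.55 to 11.2% and 7.05 to 12.3% within the groups and 20.3 to 30.7% between them, so each between-group pair was farther apart than every within-group pair. For Trdv the ranges overlapped, at 17.3 to 28.3%, 6.85 to 16.3% and 14.0 to 30.8%.

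Peaks in 1 sample were counted for V genes only, so no share of all tested genes stands beside these counts. Among tested Trav genes in either group, 174 gene and group pairs, the highest sample was at least 2-fold the middle sample in 4, among the 42 pairs of Trbv in 0, among the 8 of Trdv in 1 and among the 6 of Trgv in 0. The median ratio of the highest to the middle sample was 1.15 for Trav, 1.06 for Trbv, 1.19 for Trdv and 1.16 for Trgv. The 5 genes with the largest ratio were Trav6n-7, Trav3n-3, Trdv4, Trav11d and Trav13n-4. For Trav3n-3 the ratio is of 0.09 to 0.03 FPKM in MWA+2DG, values near 0. Trav6n-7, whose sequence is wholly shared with another V gene, was 1.68, 1.83 and 0.00 FPKM in the MWA+PBS samples and 0.00, 0.00 and 3.58 in those of MWA+2DG, so both groups held samples listed at 0. Trav13n-4 was 1.02, 2.05 and 0.86 FPKM in the MWA+PBS samples and 2.50, 2.00 and 3.03 in those of MWA+2DG (log2 fold change 0.63, limma adjusted p = 0.0405), a call lost without MWA+PBS replicate 1 or 3 or MWA+2DG replicate 4 or 6, at limma adjusted p between 0.0956 and 0.122, and lost with CD3 complex scaling (0.148).

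**Figure D5:**
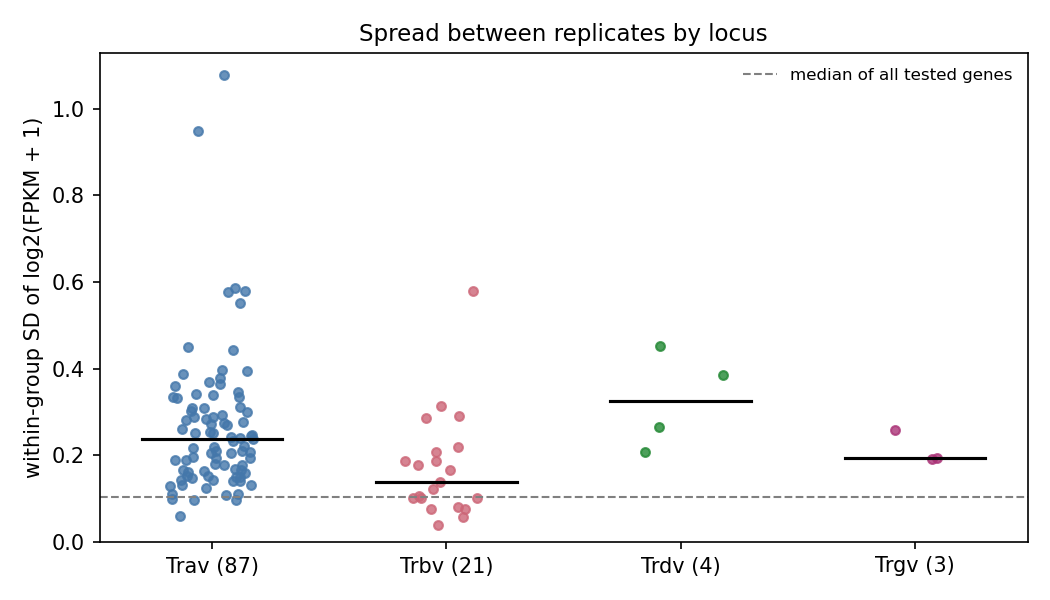
Within-group SD of log2(FPKM + 1), pooled over both groups (y axis, log2 units, from 0), for each tested V gene by locus (x axis, number of genes in brackets). Black lines are medians and the dashed line is the 0.10 of all tested genes. The median of single Trav genes lies above that of Trbv genes, which was not so for subgroup sums, and Trav6n-7 is highest at 1.08.

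Of the enzymes that rearrange V genes, Rag1 and Rag2, which cut the segments, were near 0, at or under 0.13 FPKM in each sample. Dntt, which adds nucleotides at the joins, was 4.08, 4.46 and 4.41 FPKM in the MWA+PBS samples and 0.85, 0.55 and 0.62 in those of MWA+2DG, a fall on the log2 scale of -1.67 ± 0.10 (SE, limma adjusted p = 1.59e-05). A joining segment transcribed without a V gene also counts here, so Traj and Trbj levels are not a measure of rearranged chains alone.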

How the data were processed

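RNA from 6 isolates of splenic CD8+ T cells was made into strand-marked poly(A) libraries with molecular identifiers. The authors mapped reads with HISAT2, assembled transcripts with StringTie and deposited FPKM values with 2 decimals. The submitters' processing notes name cutadapt 1.9, HISAT2 2.0.4, UMI-tools, StringTie 1.3.4d and mm9. The sources used here do not say whether strand or identifiers entered the values. Gene IDs were matched to GENCODE M21 (GRCm38) for symbols, order and sequence, for 28689 of 28773 IDs, and no coordinates are printed. In V gene values below 3 FPKM, multiplied by transcript length, no shared step stood out beyond jittered values, so no reads could be recovered and depth is unknown.

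Genes with a mean FPKM of at least 1 were fitted on log2(FPKM + 1) with limma 3.58.1 in R 4.3.3 (eBayes with trend, two-sided, Benjamini-Hochberg over all genes, called at an adjusted p under 0.05), tested on simulated data first. Sums, shares and effective numbers were compared by two-sided exact permutation tests in scipy 1.17.1. Named genes were the highest of each locus, the 5 largest called changes each way in Trav and Trbv, the 5 largest single-sample peaks, and genes listed by name. The Trgj genes were read for the Tcrg-J genes of that list. The members, lists and alternatives were chosen with earlier results of these data known. Alternatives were pseudocount, filter, scaling, trend, the study's thresholds, subgroup sums and leaving out each sample. The result of 1 further marker list is not reported here.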

Additional observations from a re-analysis of the deposited data

How the results depend on the processing

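The count of 75 called V genes became 35 with CD3 complex scaling, 21 scaled to the Trav sum, 24 scaled to the Trbv sum, 26 scaled to Trac, Trbc1 and Trbc2 (chosen after seeing the data) and 35 of 45 as subgroup sums, which test fewer features. It lay between 52 and 83 under the other settings and between 60 and 74 leaving out each replicate. The locus sums kept their direction under each alternative except Trdv, whose difference in mean log2 sums was -0.05 with CD3 complex scaling and -0.19 with Trac and Trbc scaling. Leaving out each replicate, the differences ranged from 0.63 to 0.76 (Trav), 0.57 to 0.66 (Trbv), 0.25 to 0.51 (Trdv) and 0.94 to 1.15 (Trgv). The difference in effective number of genes ranged from -1.34 to 1.21 for Trav, above 0 without MWA+PBS replicate 1 (1.21) or MWA+2DG replicate 5 (0.96), and was 0.33 by the inverse Simpson index; for Trbv it ranged from 0.21 to 0.62. The median spread between replicates of Trav genes, 0.24, was 0.21 at a mean FPKM of at least 5, 0.27 with a pseudocount of 0.1, 0.15 as subgroup sums and 0.23 with median ratio scaling. That of Trbv genes, 0.14, was 0.11, 0.15, 0.15 and 0.12.

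Of 51 named genes tested, the direction changed with Trac and Trbc scaling for Tcrg-C1 (-0.093), Tcrg-C4 (-0.40), Trav16d-dv11 (-0.17), Trav16n (-0.020), Trbc1 (-0.038), Trbv1 (-0.092), Trbv13-2 (-0.00080), Trbv14 (-0.048), Trbv26 (-0.050), Trbv29 (-0.022), Trbv31 (-0.046), Trdc (-0.26) and Trdv2-2 (-0.30). With CD3 complex scaling it changed for Tcrg-C4 (-0.29), Trav16d-dv11 (-0.045), Trdc (-0.15) and Trdv2-2 (-0.19). With Trav total scaling it changed for Trav1 (-0.071), Trav16d-dv11 (-0.29), Trav16n (-0.14) and Trav7-4 (-0.093). With Trbv total scaling it changed for Trbv1 (-0.16), Trbv12-1 (-0.042), Trbv13-1 (-0.012), Trbv13-2 (-0.071), Trbv13-3 (-0.040), Trbv14 (-0.12), Trbv17 (-0.063), Trbv19 (-0.050), Trbv26 (-0.10), Trbv29 (-0.091) and Trbv31 (-0.11). Each of these scalings raises the MWA+PBS values and lowers those of MWA+2DG, so rises near that of the reference fall around 0. On log2(FPKM + 1) the shift is smaller for low genes. Of the 51, 16 kept their direction and lost their call with CD3 complex scaling, 15 with Trac and Trbc scaling and 5 with no filter. Leaving out each replicate turned the direction of Tcrg-C4 (lowest -0.0078), Trav6n-7 (range -0.97 to 0.12), Trdv1 (-0.24 to 0.18) and Trdv2-2 (-0.049 to 0.30), none of which was called. The calls of Tcrg-V4, Trgv2, Trdv5 and Trav3n-3 held under every alternative in which they were fitted. Trav3n-3 entered the filtered fits only through its level in the MWA+PBS samples. No paired analysis was possible because the groups share no replicate number. Depth is unknown, so genes near the filter cannot be given a counting error.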
